A study of Danio rerio with 12 samples.

Results

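The 85 genes described here encode subunits of the oxidative phosphorylation complexes I to V and factors that assemble or inhibit them, and they are 85 of the 6410 named genes tested on zebrafish expression arrays. They were chosen by name and signal. A probe set, the group of short probes that measures 1 transcript, was taken where the array annotation gives it 1 gene symbol that starts with *nduf* (complex I), *sdh* (complex II), *uqcr* (complex III), *cox* followed by a digit (complex IV) or *atp5* (complex V). Its mean signal had to be at least 50 in the ethanol or the control embryos, and of several probe sets of a gene the one of highest mean signal was kept. Of 98 matching probe sets for 90 genes, 89 reached the minimum. They left 38 genes of complex I, 6 of complex II, 7 of complex III, 16 of complex IV and 18 of complex V, of which 70 encode subunits and 15 assembly factors or inhibitors. The complex was assigned by symbol prefix alone, as for *ndufa4a* in complex I, and not by the known place of each protein. All probe sets of 5 further genes (*cox4i1l*, *cox4i2*, *cox6b1*, *ndufa4b* and *sdhaf3*) stayed under the minimum, and 2 probe sets annotated to a pair of genes each (*atp5fa1* with *gcdha*, and *ndufa9a* with *ndufa9b*) were left out. The members closest to the minimum were *ndufaf8*, with mean signals of 60.9 in ethanol and 90.2 in control embryos, *ndufa1* (78.9 and 106) and *atp5if1b* (121 and 130). The closest genes under it were *cox6b1* (32.1 in ethanol and 36.9 in control embryos), *cox4i2* (26.3 and 24.8) and *sdhaf3* (14.9 and 20.2).

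Mitochondria make most of the ATP of an aerobic cell by passing electrons from NADH and succinate along a chain of protein complexes in their inner membrane. Complex I (NADH dehydrogenase) and complex II (succinate dehydrogenase) feed electrons to coenzyme Q, complex III passes them on to cytochrome c, and complex IV (cytochrome c oxidase) hands them to oxygen. Complexes I, III and IV pump protons as they do so, and complex V (ATP synthase) lets the protons return and makes ATP. Each complex except II is built from a few subunits encoded by mitochondrial DNA and many encoded in the nucleus, and dedicated assembly factors insert their hemes, flavins, copper and iron-sulfur clusters. A zebrafish embryo starts with mitochondria and transcripts laid down in the egg, and its own genome becomes active in the blastula. The roles given below for single genes are those of their mammalian counterparts.

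The study asked which early transcripts change when embryos are exposed to ethanol before gastrulation. The 6 ethanol samples were pools of 20 whole embryos of the ABTL strain held in embryo medium with 100 mM ethanol between 2 and 4.5 hours postfertilization (hpf), and the 6 control samples were pools of 20 such embryos held in the same medium with none over the same hours. Each pool was hybridized to 1 Affymetrix Zebrafish Genome Array. An ethanol and a control pool that share a number from 1 to 6 were taken to come from 1 independent experiment and were treated as a pair. The sample titles do not state this pairing. In whole-embryo pools, fewer cells of a type and less RNA per cell cannot be told apart. The labelled stage was checked against marker genes. Most deep-cell transcripts of the blastula were high in every pool (*pou5f3* 17014 to 20078 in ethanol and 15853 to 23463 in control pools, *nanog* 13274 to 17353 and 11681 to 15144), except *vent*, at 65.4 to 196 in ethanol and 66.9 to 140 in control pools. Most keratins of the enveloping layer, the outer epithelium, were also high (*krt8* 10063 to 13443 in ethanol and 10631 to 17278 in control pools), whereas *krt18b* stayed at or below 34.9 and 47.6. Of the other markers of that layer, *klf17* was at 2817 to 3494 in ethanol and 2196 to 3570 in control pools. The claudin *cldne* was at only 112 to 212 and 116 to 205. None of the 9 deep-cell and 6 enveloping layer markers tested passed the thresholds defined below, and 2 of each list were lower at an unadjusted p under 0.05. Of 9 markers of later tissues measured, 3 reached the signal minimum, muscle *actc1b* (5.29 to 132 in ethanol and 74.5 to 152 in control pools), neuronal *elavl3* (34.6 to 109 and 9.47 to 71.2) and *insb* (61.3 to 140 and 97.8 to 221). *Insb* was not itself listed and came in as a paralog of the listed *ins*, so whether it marks later tissue here is not known. The others included muscle *mylpfa*, globin *hbae3* and neuronal *neurod1*, at or below 36.2, 45.6 and 31.5 in ethanol pools and 53.9, 86.3 and 20.8 in control pools. Also under the minimum were *tnnt3b*, *hbbe3* and *ins*, at or below 74.4, 13 and 33.4 in ethanol pools and 56.1, 41.5 and 63.9 in control pools. *Insb* was lower in ethanol pools (log2 fold change -0.75, SE 0.10, limma adjusted p = 0.0494), a call that was lost with experiment 3 left out (adjusted p = 0.156). The call was also lost with experiment not in the limma fit (adjusted p = 0.456) and with no signal minimum (adjusted p = 0.24).

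A pair of arrays stood apart in the labelling controls. Poly-A control RNAs of 4 bacterial genes were carried through labelling with each sample, and the ratio of their 3′ to their 5′ probe set signal measures how far labelling reached along the transcript. Its geometric mean over the 4 RNAs was 2.43 to 3.13 on the ethanol arrays, 2.35 to 2.54 on the arrays of control pools 3 to 6, 5.19 on that of control pool 1 and 3.92 on that of control pool 2. Control pool 1 had the highest ratio for each of the 4 RNAs (dap, lys, phe and thr). Control pool 2 stood apart only for phe (4.19) and thr (6.52). Its dap ratio was 4.29, against 4.3 for ethanol pool 2, and its lys ratio 2.01, against 1.76 to 2.51 for the ethanol pools. These same 2 control pools had the highest median levels of the oxidative phosphorylation genes, so the main results below are also given without experiments 1 and 2. The part of the labelling in the results was not tested.

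No oxidative phosphorylation gene passed the thresholds in either direction, but most had slightly lower signals in ethanol than in control embryos. With limma on log2 signals and experiment as a factor, a probe set was called where its adjusted p was under 0.15, its p before adjustment under 0.03 and the size of its log2 fold change at least 0.32. Of all 9767 tested probe sets, 3.78% were called higher and 1.62% lower (5.40% in either direction), against 0 higher and 0 lower of 85 members. The lowest adjusted p of a member was 0.157. A model close to that of the study's methods, with Storey q values but experiment as a fixed factor, called 1 member (*ndufs8a*). At an unadjusted p under 0.05, 1 member was higher and 9 were lower, beside 12.8% of all tested probe sets higher and 5.46% lower. The log2 fold change was below zero for 65 of 85 members (76.5%), against 40.3% of all tested probe sets. It was below zero for 68, 74 and 78 members under quantile normalization, median centring and centring over tested probe sets, and for 61 and 53 with experiment 1 or experiment 2 left out. Its median was -0.11 for the members and 0.05 for all tested probe sets. The median differed with signal. It was 0.05 for the 2956 tested probe sets between 448 and 2121, the range of mean signal that holds the middle 43 of the members. Among the 977 tested probe sets of highest signal it was -0.08, and -0.13 for the 16 members there. Among the 977 next in signal it was 0.00, and -0.23 for the 20 members there. The part of signal level in the members' median was not tested. Ethanol and control pools overlapped for every member, and across all tested probe sets the groups were apart for 0.594%.

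**Figure D1:**
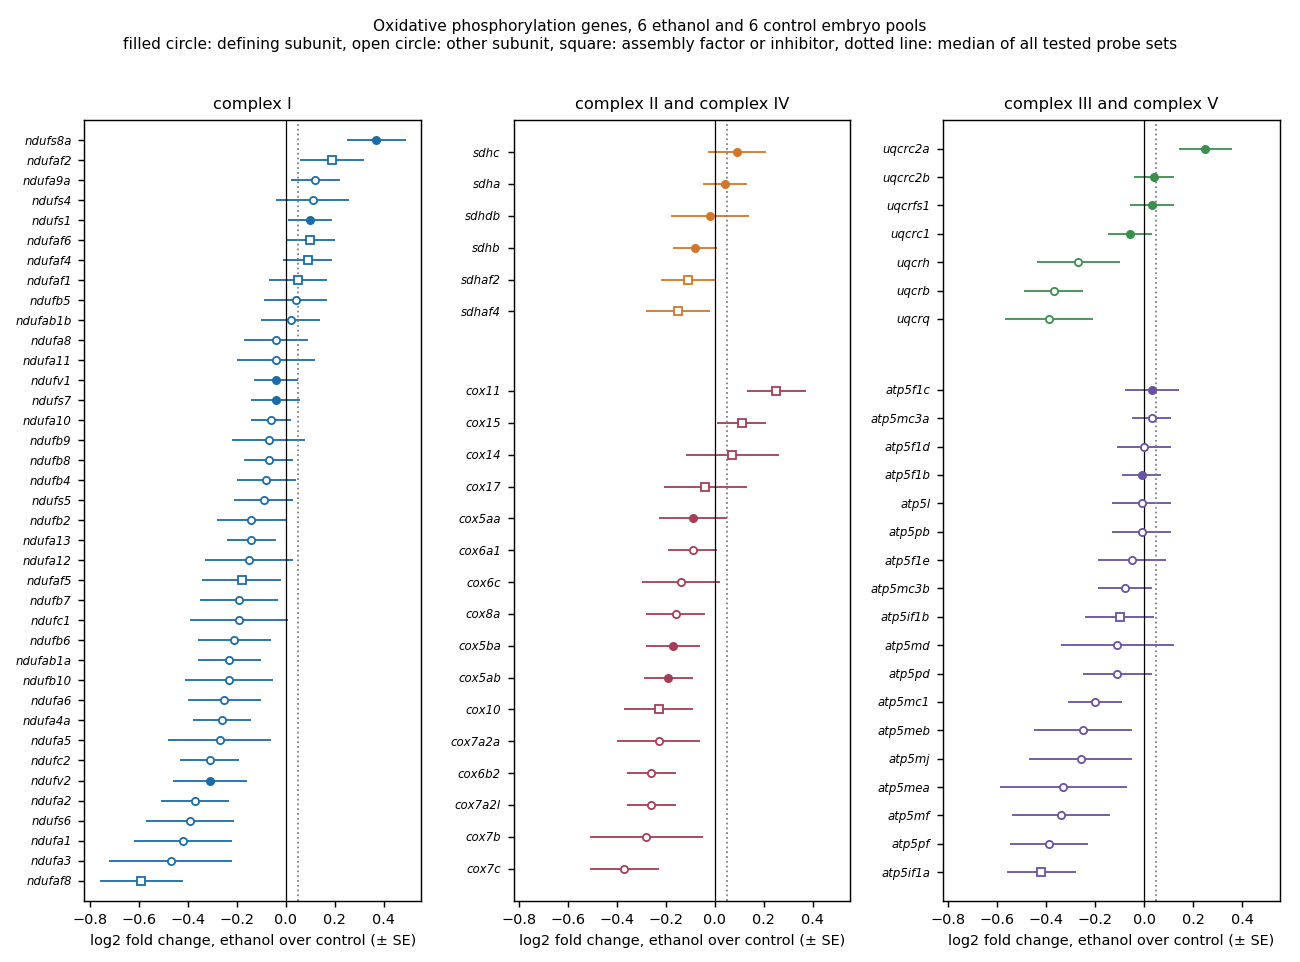
Log2 fold change (ethanol over control, ± SE from limma, 6 pools each) of the 85 oxidative phosphorylation genes, ordered within each complex. Filled circles are defining subunits, open circles other subunits and squares assembly factors or inhibitors, and the dotted line marks the median of all tested probe sets (0.05). Of the 85 genes, 65 lie left of zero, most of them open circles.

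The lower signals in ethanol embryos came from some of the experiments and not from others. In experiment 1 the median log2 ratio of the ethanol to the control pool over the 85 members was -0.34, and 65 members were lower with ethanol. In experiment 2 it was -0.42, with 76 members lower, and in experiment 3 it was -0.11, with 66 lower. Experiment 4 was even, with a median of 0.00 and 42 members lower. In experiments 5 and 6 the medians were 0.15 and 0.04, and only 25 and 33 members were lower. Over all tested probe sets, the same medians lay between 0.03 and 0.09 in every experiment. With experiments 1 and 2 left out, a choice made after the ratios had been seen, the median of the members was 0.02, with 36 of 85 below zero. For all tested probe sets the median was 0.04. Again no member was called, and 3 were higher and 1 lower at an unadjusted p under 0.05. Of the 9767 tested probe sets, 9600 also reached the minimum there, of which 29 were called higher and 28 lower. At an unadjusted p under 0.05, 942 of these were higher and 377 lower.

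**Figure D2:**
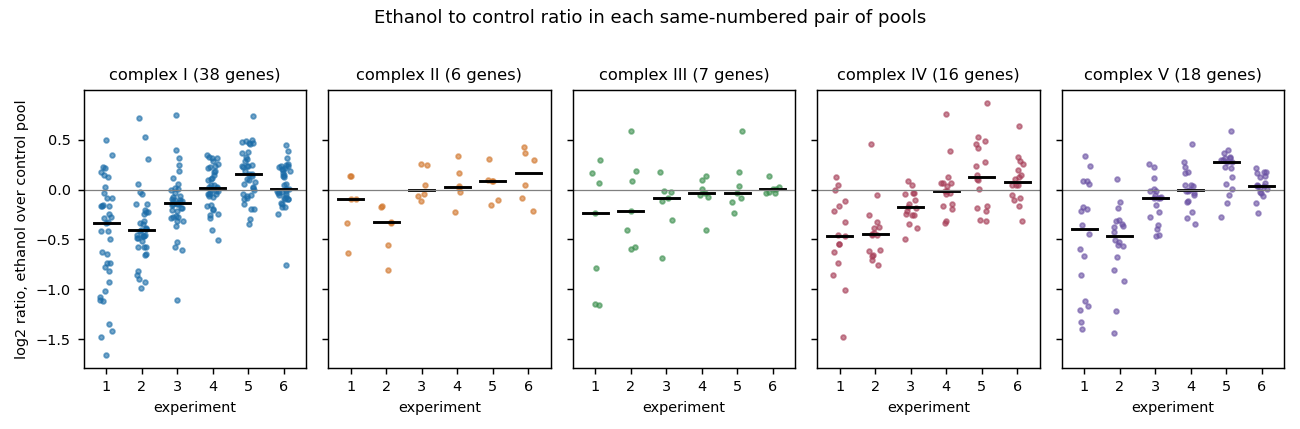
Log2 ratio of the ethanol to the control pool in each of the 6 experiments for the genes of complexes I to V. Each point is 1 gene and each black line the median of the complex, which is below zero in experiments 1 and 2 for all complexes (-0.09 to -0.47) and between -0.03 and 0.28 in experiments 4 to 6.

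The spread between experiments came mainly from the control pools. With each gene set to its own mean over the 12 arrays, the median log2 level of the members was -0.09 to 0.09 in the ethanol pools and -0.26 to 0.55 in the control pools. Control pool 2 was highest at 0.55, followed by control pool 1 at 0.26, and control pools 5 (-0.26) and 6 (-0.15) were lowest. Among the ethanol pools, pool 2 was highest at 0.09. The levels thus varied over a range of 0.18 in the ethanol pools and 0.81 in the control pools. Among the 5 complexes, complex III alone had the wider range in the ethanol pools, at -0.19 to 0.12 against -0.06 to 0.12 in the control pools. These differences in range were not tested.

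Subunits were also grouped by the part they play. A list of 21 nuclear-encoded subunits, called defining here, matched 18 members, and the other 52 subunits are mostly small accessory proteins. Many of the listed subunits carry redox centers or catalytic sites or form a core, but the list does not cover the catalytic core of every complex. In complex IV it matched only *cox5aa*, *cox5ab* and *cox5ba*, and the subunits encoded by mitochondrial DNA were not analysed. For the defining subunits the median log2 fold change was -0.02, with 10 of 18 below zero. For the other subunits it was -0.19, with 47 of 52 below zero. The medians of defining and other subunits were -0.04 and -0.15 in complex I, 0.03 and -0.37 in complex III, and 0.01 and -0.11 in complex V. In complex IV they were closer, at -0.17 and -0.25, and all 3 defining and all 8 other subunits were below zero. By experiment, the defining subunits had medians of -0.09, -0.19, -0.02, 0.00, 0.09 and 0.03 in experiments 1 to 6. The other subunits had medians of -0.61, -0.47, -0.16, 0.00, 0.17 and 0.05. The level of the other subunits ranged from -0.16 to 0.12 in ethanol pools and from -0.34 to 0.68 in control pools, with control pools 2 (0.68) and 1 (0.39) at the top. That of the defining subunits ranged only from -0.09 to 0.05 in ethanol pools and from -0.07 to 0.12 in control pools. Without experiments 1 and 2 the medians of the fold changes were 0.02 for the defining and 0.01 for the other subunits. The difference between these kinds of subunit was not tested. The 15 assembly factors and inhibitors had a median of -0.04, with 8 below zero.

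**Figure D3:**
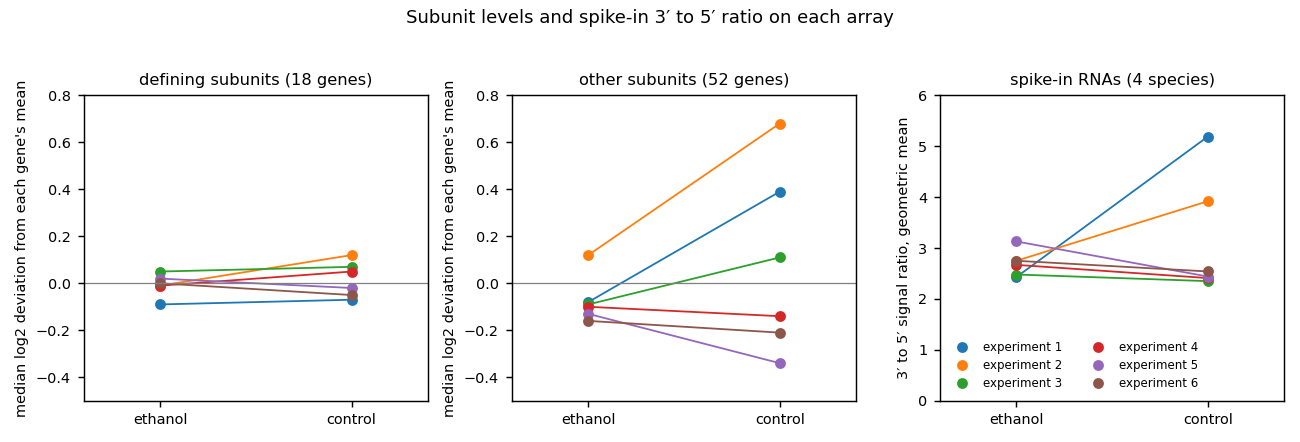
Median log2 level of 18 defining and 52 other subunits on each array, as the deviation from each gene's mean over 12 arrays, and the geometric mean of the 3′ to 5′ signal ratio of 4 spike-in RNAs. Lines join the ethanol and control pool of an experiment, and control pools 1 and 2 are the highest both for the other subunits (0.39 and 0.68) and for the spike-in ratio (5.19 and 3.92).

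Complex I had a median log2 fold change of -0.11, with 28 of 38 members below zero. The median was -0.05 without experiment 1, -0.04 without experiment 2, and 0.03 without both, where 14 of 38 members were below zero. In its matrix arm, *ndufs8a*, an iron-sulfur subunit, had the largest positive value of all members. Its signal was 313 to 623 (median 472) in the ethanol pools and 287 to 497 (median 328) in the control pools. The ranges overlapped widely, because pools of experiments 4 and 5 were high and those of experiment 1 low in both treatments. Within experiments the ethanol pool was the higher one in 5 of 6, and in experiment 6 the pools were level (log2 ratio -0.01). The log2 fold change was 0.37 with an SE of 0.12 (limma adjusted p = 0.173, p = 0.0625 by an exact permutation test, two-sided, that flips the signs of the pair ratios), and it was 0.39 without experiments 1 and 2. It passed the thresholds under 3 of the other settings given at the end. The other defining subunits of complex I were nearer to zero or negative. *Ndufs1*, which holds several iron-sulfur clusters, had a log2 fold change of 0.10 (SE 0.09), *ndufs7*, the iron-sulfur subunit next to the coenzyme Q site, -0.04 (SE 0.10), *ndufv1*, the NADH-binding flavoprotein, -0.04 (SE 0.09), and its partner *ndufv2* -0.31 (SE 0.15, adjusted p = 0.323), which was -0.18 without experiment 1 and -0.12 without experiments 1 and 2.

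The gene of complex I with the largest negative value was *ndufaf8*, an assembly factor that works with *ndufaf5*. Its signal was 26 to 86.8 (median 61.5) in ethanol pools and 54.8 to 143 (median 88.6) in control pools. The ethanol pool was lower in 5 of 6 experiments, with overlapping ranges, and experiment 4 was the exception. The log2 fold change was -0.59 with an SE of 0.17 (limma adjusted p = 0.157, p = 0.0625 in the exact sign-flip test), and -0.52 without experiments 1 and 2. This was the member with the lowest signal. *Ndufaf2*, a late-acting assembly factor, had the second highest value of complex I, 0.19 (SE 0.13, and 0.02 without experiments 1 and 2), with signals of 181 to 232 (median 200) in ethanol pools and 141 to 220 (median 172) in control pools. The 6 assembly factors of complex I had a median of 0.07.

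Several accessory subunits of complex I differed widely between experiments. *Ndufa3*, a small membrane subunit, had signals of 560 to 1079 (median 613) in ethanol pools and 495 to 2140 (median 748) in control pools. Control pools 1 and 2, at 2101 and 2140, were far above the other 4 control pools, which lay between 495 and 870, inside or near the range of the ethanol pools. The log2 ratios were -1.66, -0.99 and -0.53 in experiments 1 to 3 and -0.01, 0.10 and 0.25 in experiments 4 to 6. Over all pairs the log2 fold change was -0.47 with an SE of 0.25 (adjusted p = 0.355), and without experiments 1 and 2 it was -0.05. *Ndufs6*, a zinc-binding subunit, had 1119 to 2479 (median 1327) in ethanol pools and 1122 to 4484 (median 1657) in control pools. It was lower with ethanol in all 6 experiments, with a log2 ratio of -1.42 in experiment 1 and ratios of -0.37 to 0.00 in the others, and its log2 fold change of -0.39 was -0.18 without experiments 1 and 2. *Ndufa1*, a membrane subunit close to the signal minimum, had 55.7 to 118 (median 78.8) in ethanol pools and 73.9 to 163 (median 101) in control pools, with a log2 fold change of -0.42 (SE 0.20) that was -0.12 without experiments 1 and 2. Of the 27 subunits of complex I outside the defining list, 23 were below zero, but only 11 without experiments 1 and 2.

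Complex II, the enzyme shared with the citrate cycle and the only one with no mitochondrially encoded subunit, had the narrowest range of values. Its 6 members had log2 fold changes of -0.15 to 0.09, with a median of -0.05 that was 0.04 without experiments 1 and 2. The flavoprotein gene *sdha* had signals of 868 to 1285 (median 1159) in ethanol pools and 918 to 1296 (median 1064) in control pools. Both lowest values came from experiment 6, and the log2 fold change was 0.04 with an SE of 0.09 (adjusted p = 0.831). For *sdhb*, the iron-sulfur subunit, it was -0.08 (SE 0.09), and for the membrane anchors *sdhc* and *sdhdb* 0.09 (SE 0.12) and -0.02 (SE 0.16). The assembly factors *sdhaf4* and *sdhaf2*, which act on the flavoprotein, had -0.15 (SE 0.13) and -0.11 (SE 0.11). *Sdhc* varied by experiment more than by treatment: it was at 1144 and 1255 in ethanol and 1446 and 1413 in control pools of experiments 1 and 2, and at 721 to 890 in ethanol and 597 to 697 in control pools of experiments 3 to 6.

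The values of complex III were listed by kind of subunit, and the difference between the kinds was not tested. The catalytic iron-sulfur subunit *uqcrfs1* and the core subunits *uqcrc1*, *uqcrc2a* and *uqcrc2b* had log2 fold changes of 0.03, -0.06, 0.25 and 0.04 (SE 0.09, 0.09, 0.11 and 0.08), with a median of 0.03 that was -0.04 after median centring of the arrays. The small subunits *uqcrb*, *uqcrq* and *uqcrh* had -0.37, -0.39 and -0.27 (SE 0.12, 0.18 and 0.17). *Uqcrh* was at -0.10 without experiment 1 and at -0.02 without experiments 1 and 2. *Uqcrfs1* was level, with signals of 4496 to 5341 (median 4939) in ethanol pools and 4333 to 5203 (median 4906) in control pools. *Uqcrb* had 1644 to 2756 (median 2168) in ethanol pools and 1965 to 4133 (median 2535) in control pools. Control pools 1 and 2, at 4120 and 4133, were above every other pool, and the remaining 4 control pools lay between 1965 and 2666, within the range of the ethanol pools. *Uqcrb* was lower with ethanol in 5 of 6 experiments and level in experiment 6 (limma adjusted p = 0.187, exact sign-flip p = 0.0625), with a log2 fold change of -0.20 without experiments 1 and 2. *Uqcrq* had 1035 to 1558 (median 1262) in ethanol pools and 914 to 2823 (median 1583) in control pools, and -0.14 without these experiments. On the positive side, *uqcrc2a* had 328 to 616 (median 477) in ethanol pools and 259 to 467 (median 425) in control pools, and was higher with ethanol in 5 of 6 experiments (adjusted p = 0.289, exact sign-flip p = 0.0625).

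All 11 subunits of complex IV had a log2 fold change below zero, from -0.37 to -0.09, with a median of -0.19. All 11 were lower with ethanol in experiments 1, 2 and 3, and 7, 3 and 4 of them in experiments 4, 5 and 6. With experiments 1 and 2 left out, 8 of 11 were below zero and the median was -0.03. *Cox7c*, a small membrane subunit, had the largest negative value, with signals of 5569 to 8618 (median 7180) in ethanol pools and 6861 to 13586 (median 8418) in control pools. Here control pools 1, 2 and 3 were above all ethanol pools, and control pools 4 to 6 among them. Its log2 fold change was -0.37 with an SE of 0.14 (limma adjusted p = 0.239, exact sign-flip p = 0.125), and -0.17 without experiments 1 and 2. *Cox7b*, another small subunit, had 1162 to 2448 (median 1347) in ethanol pools and 829 to 4639 (median 1449) in control pools. Its ratio turned with the experiment, from -1.48 in experiment 1 to 0.49 in experiment 5, and the log2 fold change of -0.28 (SE 0.23) became 0.06 without experiments 1 and 2. The defining subunits *cox5aa*, *cox5ab* and *cox5ba* had -0.09, -0.19 and -0.17 (SE 0.14, 0.10 and 0.11), and 0.12, -0.08 and -0.08 without experiments 1 and 2. *Cox7a2l*, which in mammals joins complexes III and IV, was lower in all 6 experiments, with 2175 to 2668 (median 2301) in ethanol pools and 2296 to 4101 (median 2603) in control pools and a log2 fold change of -0.26 with an SE of 0.10 (adjusted p = 0.244) that was -0.12 without experiments 1 and 2. *Cox4i1* itself was not analysed here.

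Of the assembly factors of complex IV, 2 of 5 were below zero, with a median of 0.07, but 3 of 5 were below zero after median centring, over all or over tested probe sets, and with experiment 5 or 6 left out. Only 1 of 5 was below zero without experiment 1, without experiment 2 or without both (medians 0.12, 0.04 and 0.23). *Cox11*, which delivers copper, had signals of 125 to 177 (median 143) in ethanol pools and 105 to 166 (median 124) in control pools. It was higher with ethanol in 5 of 6 experiments, with overlapping ranges and a log2 fold change of 0.25 with an SE of 0.12 (adjusted p = 0.326, exact sign-flip p = 0.0625). Without experiments 1 and 2 its log2 fold change was 0.35. *Cox15* and *cox10*, which make the heme of the complex, had 0.11 (SE 0.10) and -0.23 (SE 0.14), and 0.03 and -0.07 without experiments 1 and 2.

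Complex V had a median of -0.11, with 16 of 18 members below zero. Without experiments 1 and 2 the median was 0.04, with 6 of 18 below zero. The largest negative value was that of *atp5if1a*, the inhibitor that keeps the ATP synthase from running backwards. Its signal was 1405 to 2030 (median 1672) in ethanol pools and 1467 to 3567 (median 2109) in control pools. Control pools 1, 2 and 3, at 3534, 3567 and 2340, were above every ethanol pool, and control pools 4 to 6 were not. The ethanol pool was the lower one in all 6 experiments, by 0.86 and 0.81 in experiments 1 and 2 and by 0.05 and 0.06 in experiments 5 and 6 on the log2 scale. The log2 fold change was -0.42 with an SE of 0.14 (limma adjusted p = 0.178), with an exact two-sided sign-flip p of 0.03125, the smallest that 6 pairs allow, and -0.22 without experiments 1 and 2. *Atp5pf*, a peripheral stalk subunit, was also lower in all 6, with 910 to 1643 (median 1227) in ethanol pools and 995 to 3204 (median 1432) in control pools, and a log2 fold change of -0.39 with an SE of 0.16 (adjusted p = 0.249) that was -0.15 without these experiments.

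The 2 defining subunits of complex V among the members did not differ between treatments beyond their error. The listed *atp5a1* and *atp5o* matched no member. *Atp5f1b*, the catalytic beta subunit, and *atp5f1c*, the rotating gamma subunit, had log2 fold changes of -0.01 (SE 0.08) and 0.03 (SE 0.11). Their signals differed far more between experiments. *Atp5f1b* was at 2485 and 2083 in ethanol and 2342 and 1927 in control pools of experiments 1 and 2, and at 3516 to 4896 in ethanol and 3418 to 5193 in control pools of the other experiments. *Atp5f1c* went the other way, with 3380, 3444 and 4170 in ethanol and 3923, 4385 and 4067 in control pools of experiments 1, 2 and 6, against 2032 to 2150 in ethanol and 1733 to 1891 in control pools of experiments 3 to 5. The same grouping of experiments was widest for *atp5mea*, a copy of the membrane subunit e, which had 454 to 595 in ethanol and 378 to 507 in control pools of experiments 3 to 5, but 19.6 to 51 in ethanol and 52.1 to 90.8 in control pools of experiments 1, 2 and 6. Within complex I, *ndufv1* had 876 and 812 in ethanol and 790 and 893 in control pools of experiments 1 and 2, and 1559 to 1943 in ethanol and 1694 to 1788 in control pools of experiments 3 to 6. These genes were picked out after their values were seen, and differences between experiments were not tested.

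**Figure D4:**
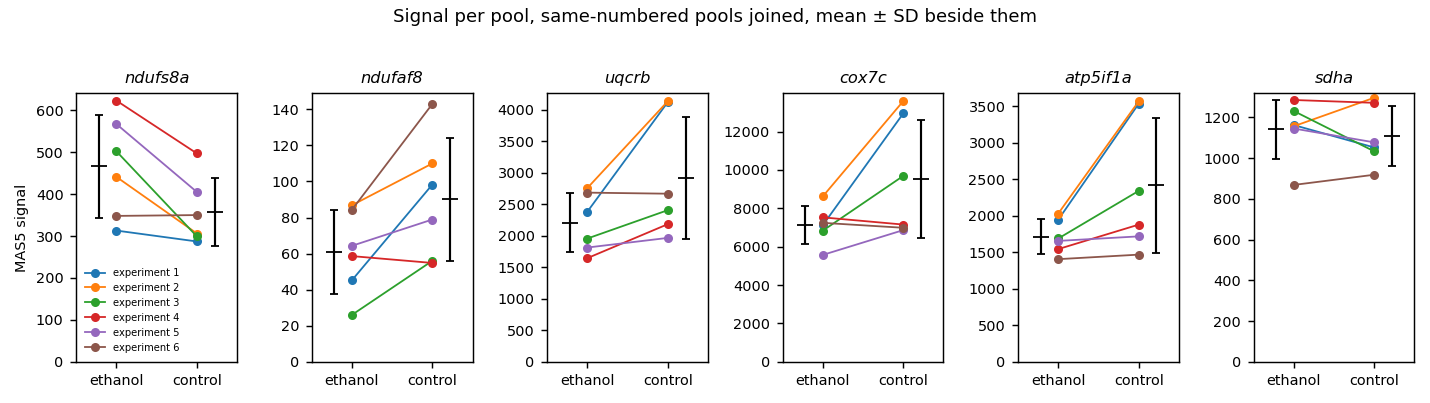
MAS5 signal of 6 genes in each pool, with lines joining the ethanol and control pool of an experiment and bars giving the mean ± SD (n = 6 each). For *uqcrb*, *cox7c* and *atp5if1a*, control pools 1 and 2 lie above all ethanol pools, *ndufs8a* is higher with ethanol in 5 of 6 experiments, *ndufaf8* is lower in 5 of 6, and *sdha* is level (log2 fold change 0.04).

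Across the complexes, 6 of 85 members were lower with ethanol in all 6 experiments (*ndufa2*, *ndufc2*, *ndufs6*, *cox7a2l*, *atp5if1a* and *atp5pf*), and 0 were higher in all 6. Of all tested probe sets, 3.84% were lower and 8.14% higher in all 6. *Ndufa2* and *ndufc2*, accessory subunits of complex I, had log2 fold changes of -0.37 (SE 0.14, adjusted p = 0.239) and -0.31 (SE 0.12, adjusted p = 0.253), and -0.20 and -0.13 without experiments 1 and 2. For each of the 6 genes the ratio was smallest in size in experiment 4, 5 or 6.

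Paralogs, copies of a gene kept since a duplication, could be compared in 6 families, and near-identical copies may share probes. The signs agreed for *cox5aa* and *cox5ab* (-0.09 and -0.19), *uqcrc2a* and *uqcrc2b* (0.25 and 0.04), *atp5if1a* and *atp5if1b* (-0.42 and -0.10, SE 0.14 each) and *atp5mea* and *atp5meb* (-0.33 and -0.25, SE 0.26 and 0.20). The last pair was at 0.17 and 0.09 without experiments 1 and 2. For the acyl carrier protein of complex I they were -0.23 for *ndufab1a* and 0.02 for *ndufab1b* (SE 0.13 and 0.12), and for the membrane ring of complex V 0.03 for *atp5mc3a* and -0.08 for *atp5mc3b* (SE 0.08 and 0.11). *Atp5mc1*, a further member with the stem *atp5mc*, had -0.20 (SE 0.11), and -0.07 without experiments 1 and 2. After median centring *uqcrc2b*, *ndufab1b* and *atp5mc3a* were below zero, at -0.03, -0.04 and -0.04. None of these paralogs was called. The probe set chosen for *ndufab1a* is of a type that can also bind related transcripts. Of the 3 members with more than 1 tested probe set, the values were alike for *ndufab1a* (-0.27, -0.20 and -0.23) and *ndufv2* (-0.23 and -0.31), and opposite for the assembly factor *ndufaf1*, at 0.05 for the probe set kept and -0.23 for one with a mean signal near the minimum (54.9 in ethanol and 68.7 in control pools).

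Of the 45 tested genes of the pathway outside these symbols, 1 was called, beside 5.40% of all tested probe sets. At an unadjusted p under 0.05, 12.8% of all tested probe sets were higher and 5.46% lower. The list of further assembly factors had 15 tested genes, of which 1 rose, 0 fell and 14 were not called, with a median log2 fold change of 0.19. The called gene was *fastkd2*, a mitochondrial RNA-binding protein, with signals of 103 to 230 (median 150) in ethanol pools and 56.3 to 192 (median 114) in control pools. The ethanol pool was higher in all 6 experiments although the ranges overlapped, and the log2 fold change was 0.47 with an SE of 0.12 (limma adjusted p = 0.12, exact sign-flip p = 0.03125). Its call was lost with any 1 experiment left out (adjusted p = 0.177 to 0.242), with a random block (0.183), with quantile normalization (0.162) and with median centring (0.187). *Uqcc3*, which assembles complex III, was also higher in all 6 (0.34, SE 0.11, adjusted p = 0.171). None of 8 coenzyme Q genes was called (median 0.23, 3 higher at an unadjusted p under 0.05), and the kinase-like *coq8aa* was higher in all 6 experiments (0.31, SE 0.11, adjusted p = 0.199). Its log2 ratios were 0.54 and 0.61 in experiments 1 and 2, 0.21 and 0.38 in experiments 3 and 4, and 0.04 and 0.09 in experiments 5 and 6. None of 6 electron carrier genes was called (median 0.00, 2 lower at an unadjusted p under 0.05). Among them cytochrome c itself, *cycsb*, was lower in all 6, with 3464 to 4639 (median 3893) in ethanol pools and 3568 to 7423 (median 4724) in control pools. Its log2 ratios were -0.90 and -0.50 in experiments 1 and 2, and -0.12, -0.35 and -0.20 in experiments 3, 4 and 6. In experiment 5 the pools were nearly equal (3563 in ethanol and 3568 in control). The log2 fold change of *cycsb* was -0.35 with an SE of 0.13 (adjusted p = 0.226), and control pools 1 and 2 were again its highest. *Cyc1*, a cytochrome of complex III, was level (0.02, SE 0.09), as was *hccsb*, the enzyme that attaches the heme of *cycsb* and *cyc1* (-0.01, SE 0.09). None of 6 genes of ATP and phosphate exchange was called (median -0.08, 1 lower at an unadjusted p under 0.05), and the phosphate carrier *slc25a3b* was lower in all 6, by 0.15 to 0.32 on the log2 scale (-0.22, SE 0.08, adjusted p = 0.214). None of 9 regulators of nuclear mitochondrial genes was called (median 0.03, 1 higher at an unadjusted p under 0.05), among them *nrf1* at 0.03 (SE 0.11), *gabpa* at -0.16 (SE 0.10) and *tfam*, which packages mitochondrial DNA, at 0.21 (SE 0.12). The 13 subunits encoded by mitochondrial DNA were not analysed here.

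The protein families closest in kind were the cytosolic and the mitochondrial ribosomal proteins, which were set beside the members after their values had been seen. Of all tested probe sets, 1.62% were called lower, and at an unadjusted p under 0.05 12.8% were higher and 5.46% lower. The 74 cytosolic ribosomal protein genes had a median log2 fold change of -0.24, with 71 below zero and 1 called lower, and 26 lower at an unadjusted p under 0.05. Under quantile normalization the median was -0.10, with 66 below zero and the call lost, beside -0.13 for the oxidative phosphorylation genes. Their medians were -0.39, -0.60, -0.32, -0.14, -0.05 and 0.00 in experiments 1 to 6, and without experiments 1 and 2 the median was -0.13, with 71 of 74 still below zero. The oxidative phosphorylation genes, at 0.02 and 36 of 85, did not keep their sign in that setting. The 59 mitochondrial ribosomal protein genes had a median of 0.00, with 27 below zero, 0 called and 1 higher and 1 lower at an unadjusted p under 0.05, and medians of -0.19 and -0.15 in experiments 1 and 2 and 0.12, 0.21 and 0.06 in experiments 4 to 6. Below zero were 39 of 59 under quantile normalization (median -0.08), 38 after median centring (-0.07) and 42 after centring over tested probe sets (-0.10, 1 called lower). None of these differences between families was tested.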

How the data were processed

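Total RNA of 12 embryo pools was labelled with a 3′ kit and hybridized to 1-colour arrays. Per the deposited table, each probe set has an intensity, the MAS5 signal before any log transform, which the authors computed in Affymetrix Expression Console (version not given in the sources used here) after background correction and scaling of each array. On every array the mean signal after trimming 2% at each end was 500.1, which is not the scaling target that the methods state. Left out of the 15617 probe sets were 115 Affymetrix controls and 5735 whose mean signal reached 50 in neither treatment, in place of the methods' filter on detection calls. Names came from the platform annotation of 2016, in which 10802 probe sets have 1 symbol, 135 several and 4680 none.

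Log2 signals of 9767 probe sets were fitted on treatment and experiment by lmFit and eBayes of limma 3.58.1 (R 4.3.3), with Benjamini-Hochberg adjustment over all of them, at the thresholds of the methods. The methods take experiment as a random effect and Storey q values. The steps were tested on simulated data. Tables, exact tests and figures were made in Python 3.11.15 with pandas 2.3.3, numpy 2.4.6, matplotlib 3.10.9 and scipy 1.17.1. After each treatment's mean was removed, the 2 arrays of a number correlated at 0.373 to 0.669 across probe sets. By this measure the closest ethanol array had the same number for control arrays 2, 5 and 6, and another for 1, 3 and 4. The closest control array had the same number for ethanol arrays 1, 4, 5 and 6, and another for 2 and 3. The numbers were still taken as pairs. The number of arrays limits the precision.

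The members and lists were chosen with earlier results of these data known. Named genes are those with the 2 highest and the 2 lowest log2 fold changes of a complex, defining subunits, paralogs, genes next to the signal minimum, genes with probe sets of opposite sign and called genes of related lists. Others were named after their values were seen. The lists cover electron carriers, further assembly factors, coenzyme Q synthesis, ATP and phosphate exchange, regulators and embryonic markers. Alternatives were a fit with no block, one with a random block, quantile normalization, median centring, log2(signal + 50), no filter or a minimum of 100, an adjusted p under 0.05, the methods' model, the mean over the probe sets of a gene and leaving out experiments.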

Additional observations from a re-analysis of the deposited data

Results flagged for a closer look

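In 50 groups of 6 values (signals of the members shown in detail, array levels and ratios by pair), 3 held a value far from the others of its group, and chance gives about 1 in 20. *Ndufa3* was highest in ethanol pool 2, at 1079. *Sdha* was lowest in ethanol pool 6, at 868. The median level of the 85 members was highest in ethanol pool 2, at 0.09 on the log2 scale relative to each gene's mean.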

How the results depend on the processing

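No oxidative phosphorylation gene was called in the fit with experiment as a block, with a random block, without the replicate block, under quantile normalization, median centring or no filter, at an adjusted p under 0.05, or with any experiment left out. Other settings called some. With log2(signal + 50), 1 was higher (*ndufs8a*) and 6 lower (*atp5if1a*, *atp5pf*, *cox7c*, *ndufa2*, *ndufaf8* and *uqcrb*). In that setting 500 of all 9767 tested probe sets were called higher and 226 lower. With a minimum of 100, 1 was higher (*ndufs8a*) and 2 lower (*atp5if1a* and *uqcrb*). The methods' model with Storey q called 1 higher (*ndufs8a*) and 0 lower, beside 657 called over all tested probe sets, 472 of them higher. With median centring over tested probe sets only, and with the mean over the probe sets of a gene, 0 were higher and 1 lower (*ndufaf8*). The mean over the probe sets of a gene gave 561 calls in all, 399 of them higher. Over all tested probe sets, 527 were called, 1 without the replicate block (pairing), 249 with quantile normalization (103 higher and 146 lower, against 369 and 158), 179 with median centring (60 and 119), 407 with centring over tested probe sets (120 and 287), 2 with no filter, 824 with a minimum of 100, 33 at an adjusted p under 0.05, 65 without experiments 1 and 2, and 23 to 145 with 1 experiment left out.

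The median log2 fold change of the members was -0.18 to -0.04 with 1 experiment left out, -0.13 with quantile normalization and -0.18 with median centring. Centring over tested probe sets moved the median of all genes by -0.11. There the members' median was -0.22 (-0.17 relative to all, as in the fit without it) and that of complex III -0.16. Complex II's median was 0.03 without experiment 2.

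Of the 45 tested genes of the related lists, 1 was called (*fastkd2*), against 0 without the replicate block, with a random block, quantile normalization, median centring, no filter, an adjusted p under 0.05, without experiments 1 and 2 or with 1 experiment left out (0 to 0), 2 with log2(signal + 50) or the methods' model, 3 with a minimum of 100, and 1 with centring over tested probe sets, which was *slc25a3b* and not *fastkd2*. Of the 42 genes named by rule, none of those that changed sign was called. With quantile normalization these were *atp5f1b* (0.04), *ndufab1b* (-0.01) and *ndufaf1* (-0.04). With median centring they were *sdha* (-0.03), *uqcrc2b* (-0.03), *atp5f1c* (-0.04), *atp5mc3a* (-0.04), *uqcrfs1* (-0.04), *ndufab1b* (-0.04) and *ndufaf1* (-0.02). With centring over tested probe sets they were *sdhc* (-0.01), *sdha* (-0.06), *uqcrc2b* (-0.07), *atp5f1c* (-0.07), *atp5mc3a* (-0.08), *ndufs1* (0.00), *uqcrfs1* (-0.08), *ndufab1b* (-0.08) and *ndufaf1* (-0.06). Without experiments 1 and 2 they were *sdhaf4* (0.02), *uqcrc2b* (0.00), *cox7b* (0.06), *ndufs7* (0.03), *sdhdb* (0.19), *cox5aa* (0.12), *atp5mc3b* (0.07), *atp5mea* (0.17) and *atp5meb* (0.09). *Ndufaf1* was at -0.09 with the mean of its probe sets. With 1 experiment left out, 7 of these genes took either sign: *uqcrfs1* (-0.03 to 0.08), *ndufaf1* (-0.02 to 0.11), *atp5f1b* (-0.03 to 0.03), *sdhdb* (-0.11 to 0.14), *atp5mc3a* (-0.02 to 0.06), *ndufab1b* (-0.06 to 0.12) and *atp5f1c* (-0.02 to 0.11).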
